A study of Arabidopsis thaliana with 48 samples.

Results

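The 42 genes described here encode the nuclear light-harvesting antenna proteins (LHCA and LHCB) and the nuclear subunits of photosystem I (PSA) and photosystem II (PSB) of Arabidopsis thaliana. They were chosen by locus from these gene families, with no measured value in the rule, though earlier results of these data were known. They are 42 of the 33211 features of the count table. By role, 14 are antenna genes of photosystem II, 6 are antenna genes of photosystem I, 12 encode photosystem I subunits and 10 encode photosystem II subunits. All 42 passed the filter on low counts, as did 22252 features of the whole table. RNA came from the aerial parts of Col-0 plants in 12 groups of 4 libraries. Infested plants carried spider mites (Tetranychus urticae, an arthropod that sucks out leaf cells), 20 adult females each from an age of 3 weeks, and were harvested after 30 min, after 24 h and then after 4, 7, 12 and 15 d. Control plants had no mites, were the same ecotype and age, and were harvested at the same 6 times. Plants of both kinds stood in cylinders that kept the mites in place. Each library is a pool of 4 plants, so the spread between libraries is a spread between pools. Time since infestation, plant age and developmental stage advance together over these harvests and cannot be told apart. The hour of day at which plants were cut is not stated in the labels.

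Antenna proteins bind chlorophyll and carotenoids in the thylakoid membrane and pass absorbed light energy to the reaction centres. LHCB proteins serve mainly photosystem II, as trimers of LHCB1, LHCB2 and LHCB3 joined to the core through the single proteins LHCB4, LHCB5 and LHCB6, and LHCA proteins form a belt at photosystem I. The PSA and PSB proteins made from nuclear genes surround reaction centres whose core proteins are made from chloroplast genes. In leaves these nuclear genes are known for very abundant transcripts that follow light, the circadian clock and GOLDEN2-LIKE (GLK) transcription factors, and that decline as leaves senesce.

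Library totals lay between 12.5 and 23.4 M counts with a median of 18.9 M. The 3 leaf markers on the list (RBCS1A, RCA and RBCS2B) were present in every group. The summed level of 6 floral organ markers climbed with harvest in both arms, to 147 ± 13.9 CPM (counts scaled to a common library size by TMM) in infested and 170.4 ± 24.6 CPM in control libraries at 15 d, against 4.25 ± 0.792 CPM in infested and 4.73 ± 1.32 CPM in control libraries at 30 min. None of these 6 was at 0 in any group. The 4 seed markers stayed near 0 except in control plants at 15 d, where their sum ranged from 0.0879 to 22.9 CPM. In the control group of 7 d, replicates 1 and 4 and replicates 2 and 3 stood apart in the level of the 42 genes, and in the infested group of 12 d replicate 1 stood above the others.

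LHCB1 has 5 gene copies whose counts could be confused, so their sequences are shown first. The 60 coding bases below are from the same part of each gene, taken from the RefSeq TAIR10.1 genome and read 5′ to 3′ on the coding strand, and capitals mark the 15 positions at which the copies differ. CAB2 (AT1G29920) is read at chr1:10475626-10475685 on the minus strand, CAB3 (AT1G29910) at chr1:10472980-10473039 on the minus strand, CAB1 (AT1G29930) at chr1:10478278-10478337 on the plus strand, LHB1B1 (AT2G34430) at chr2:14525022-14525081 on the plus strand and LHB1B2 (AT2G34420) at chr2:14523253-14523312 on the minus strand.
CAB2: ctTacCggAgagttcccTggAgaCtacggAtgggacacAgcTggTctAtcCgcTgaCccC
CAB3: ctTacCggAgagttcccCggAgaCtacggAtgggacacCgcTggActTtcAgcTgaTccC
CAB1: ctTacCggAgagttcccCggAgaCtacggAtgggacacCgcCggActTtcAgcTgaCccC
LHB1B1: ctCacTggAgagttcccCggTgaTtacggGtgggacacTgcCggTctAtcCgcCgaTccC
LHB1B2: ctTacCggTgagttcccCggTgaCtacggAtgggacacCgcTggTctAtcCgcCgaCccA
Over the whole coding sequence CAB1, CAB2 and CAB3 were 95.6 to 96.4% identical, LHB1B1 and LHB1B2 were 92.5% identical, and LHB1B1 was 87.0 to 88.4% identical to the 3 CAB genes. The longest run of exon bases shared by a pair of LHCB1 copies was 122 bases, between LHB1B1 and LHB1B2. Reads were 150 bases long and paired, and 40 of the 42 genes had no exon window of 150 bases that occurs elsewhere in the genome. The exceptions were LHCB2.1 and LHCB2.2, which share a run of 152 bases. How reads on more than 1 copy were counted is not given in the sources used here, so values of single copies stay uncertain. Strand use is likewise not given, and 16 of the 42 genes overlap a counted gene on the opposite strand. The overlap covers all exon bases of LHB1B2, 61.4% in PSAG, 53.3% in PSAH1, 40.6% in LHCB2.3 and 34.1% in PSAE1.

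The 42 genes together supplied a large part of all counts, and this part was smaller in infested than in control plants at the first 3 harvests and larger at the last 2. At 24 h they held 14.1, 13.6, 14.1 and 14.9% of the counts in infested libraries, against 17.1, 16.6, 15.7 and 17.6% in control libraries. The groups did not overlap. At 12 d the shares were 15.5, 13.3, 13.0 and 13.0% in infested and 11.7, 10.7, 11.3 and 9.70% in control libraries, and at 15 d they were 10.4, 11.3, 9.75 and 9.40% in infested and 9.36, 6.83, 7.96 and 6.76% in control libraries. Every infested library lay above every control library at both times. At 7 d the shares overlapped, at 14.9 to 16.4% in infested libraries and 16.7, 12.0, 12.0 and 14.9% in control libraries. The shares averaged 17.0 ± 0.201% in infested and 18.2 ± 0.594% in control libraries at 30 min, and 14.34 ± 0.348% in infested and 15.37 ± 0.336% in control libraries at 4 d (SD, n = 4 each), and the groups were apart at both of these harvests too. In these bulk samples fewer green cells and less of these RNAs per cell cannot be told apart.

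**Figure D1:**
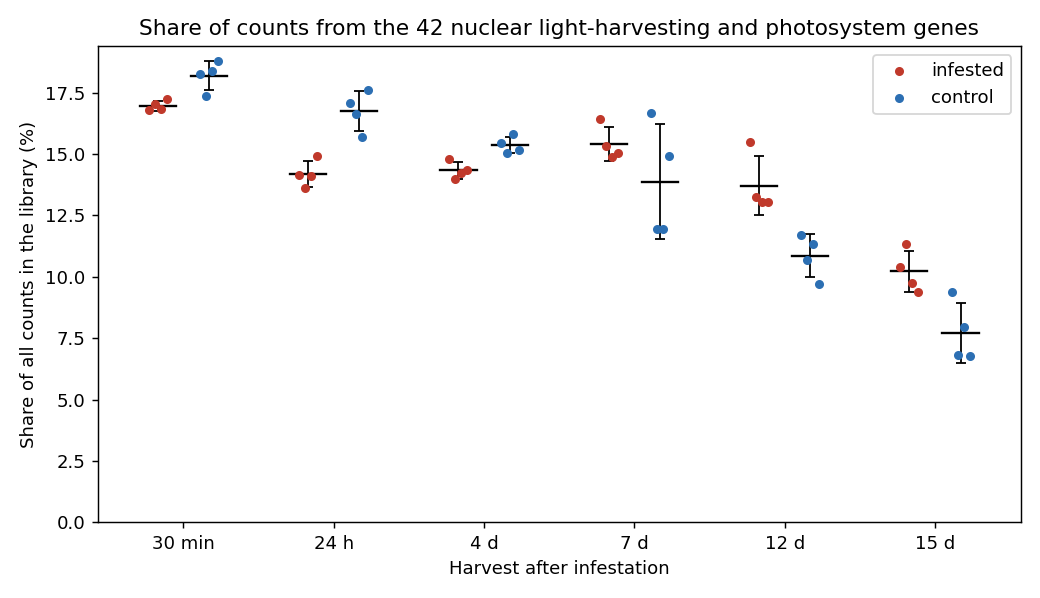
Share of all counts held by the 42 genes (y axis, %) at each harvest (x axis), with 1 point per library, a line at the mean and a bar of 1 SD. Infested libraries (red) lie below the controls (blue) at the first 3 harvests and above them at 12 d and 15 d, and the share in both arms is lowest at 15 d.

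After 30 min and 4 d few single genes differed from the controls, while at 24 h the whole set sat slightly lower in infested plants. Gene by gene, all 42 fitted log2 fold changes were negative at 24 h, with a median of -0.21 beside -0.02 over all genes tested. Of the 42 genes 10 were lower past an adjusted p of 0.05 by edgeR's quasi-likelihood test, beside 10.2% of all genes. By role these were 3 of 14, 2 of 6, 0 of 12 and 5 of 10, counted for photosystem II antenna, photosystem I antenna, photosystem I subunits and photosystem II subunits. The 10 were CAB3, LHCB2.1, LHCB4.3, LHCA3, LHCA6, PSBO1, PSBO2, PSBQ1, PSBR and PSBS. For 26 of the 42, every infested library lay below every control library at 24 h, which was so for 13% of all genes. At 30 min 1 gene of the 42, LHCA6, was lower, beside 9.71% of all genes, and 6 had every infested library below every control library, beside 11.6%. At 4 d 3 were lower, LHCB4.3, PSBS and LHCA6, beside 7.68% of all genes, and 9 had every infested library below every control library, beside 13.2%. None of the 42 was higher at these 3 harvests by edgeR, at an unadjusted p below 0.05 or by DESeq2, while 13.3, 13 and 8.68% of all genes were, in order of time. The medians were -0.05 at 30 min and -0.09 at 4 d, beside -0.01 and -0.00 over all genes.

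The count at 24 h depends on single libraries and on the fit. It was 4 without replicate 2 of the infested plants or replicate 4 of the control plants, 6 without infested replicate 3 or control replicate 1, 21 with scaling to library totals and 25 when the 8 libraries of that time were fitted alone. The single call at 30 min was lost without infested replicate 1, infested replicate 2 or control replicate 4. Without any 1 library LHCB4.3, PSBO1, PSBO2 and PSBS kept their calls at 24 h. PSBQ1 lost its call without infested replicate 2 or control replicate 4, LHCA3 without infested replicate 2 or 3 or control replicate 4, LHCA6 without infested or control replicate 1, infested replicate 2 or control replicate 4, and LHCB2.1 without infested replicate 2 or 3 or control replicate 1, 2 or 4. Fitted alone, the 8 libraries of 30 min gave 4 lower genes and those of 4 d gave 11. Such fits called 5385 of 19357 genes at 30 min, 5356 of 19531 at 24 h and 5345 of 19763 at 4 d, in either direction.

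The morning clock genes moved in the same comparison. CCA1, a core clock repressor that binds LHCB promoters, had 140.4, 143, 139.7 and 155 CPM in infested libraries, against 253, 235, 270.2 and 265 CPM in control libraries at 24 h, with no overlap. Its log2 fold change was -0.82 (SE 0.08, edgeR adjusted p = 3.05e-10), and that of its partner LHY was -0.67 (SE 0.08, edgeR adjusted p = 6.32e-09). Of 14 clock genes 6 were lower and 2 higher, and of all genes 10.2% were lower and 13% higher at 24 h. The summed clock list was 1104 to 1243 CPM in infested and 1520.3 to 1683 CPM in control libraries at 24 h, with no gene at 0. The leaf markers moved too, with 2 of 3 lower at 24 h and a summed level of 22899 to 24152 CPM in infested and 28924 to 33382 CPM in control libraries. At 4 d 2 of 3 were lower as well, beside 7.68% of all genes. The sum of the 3 was then 27878 to 30123 CPM in infested and 33769 to 37076 CPM in control libraries. Of 4 root markers, 2 were higher at 24 h, PYK10 (1.15) and BGLU22 (5.73 to 9.72 CPM in infested and 0 to 0.373 CPM in control libraries), PIP2;4 had -0.04 without passing, and AT5G17820 was at 0 in every library of 24 h. Their sum, nearly all of it PYK10, was 493 to 714 CPM in infested and 229.6 to 361 CPM in control libraries at 24 h, 414 to 474 CPM in infested and 252 to 280.3 CPM in control libraries at 4 d, and 229.7 to 266 CPM in infested and 133 to 207 CPM in control libraries at 7 d. The part of these 3 lists in the lower photosystem transcripts was not tested.

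At 7 d the fitted fold changes of the 42 genes turned positive in 40 of 42, with a median of 0.17 beside 0.01 over all genes, but few passed the test. CAB3 and PSBQ2 were higher past the threshold, 2 of 42 beside 6.16% of all genes called higher. CAB3 alone had every infested library above every control library, beside 7.4% of all genes, and LHCB4.3 alone had every infested library below every control library, beside 7.49%. The count of higher genes depends on single libraries. It was 26 without control replicate 1, 5 without control replicate 4, 0 without control replicate 2 or 3, 1 without infested replicate 1, 2 or 3, and 0 when the 8 libraries of 7 d were fitted alone. That last fit called 1979 of 19819 genes in either direction.

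At the last 2 harvests the set was higher in infested plants. Past the threshold 34 of 42 genes were higher at 12 d, beside 7.78% of all genes, and 32 of 42 at 15 d, beside 8.67%. The median log2 fold change was 0.37 at 12 d and 0.47 at 15 d, beside -0.02 over all genes at both times. Every infested library lay above every control library for 30 genes at 12 d, beside 8.26% of all genes, and for 20 at 15 d, beside 6.39%. At both times 29 genes were called higher. Those not called at 12 d were LHB1B2, LHCB4.3, PSAH1, PSAK, PSBR, PSBS, PSBW and PSBX, and those not called at 15 d were LHB1B2, LHCB4.3, LHCA2, LHCA5, PSAD1, PSAD2, PSAH1, PSAL, PSBR and PSBX. Lower genes numbered 0 of 42 by edgeR and by DESeq2 at 7 d, 12 d and 15 d, where 1, 1 and 0 were lower at an unadjusted p below 0.05 and 7.59, 8.3 and 9.68% of all genes were called lower. By role, 12 of the 14 photosystem II antenna genes were higher at 12 d and 12 at 15 d, 6 and 4 of the 6 photosystem I antenna genes, 10 and 8 of the 12 photosystem I subunits, and 6 and 8 of the 10 photosystem II subunits. The medians were 0.46, 0.36, 0.37 and 0.32 at 12 d and 0.59, 0.36, 0.40 and 0.33 at 15 d, in that order of roles. Of the 10 genes lower at 24 h, 7 were higher at both 12 d and 15 d, beside 29 of all 42.

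**Figure D2:**
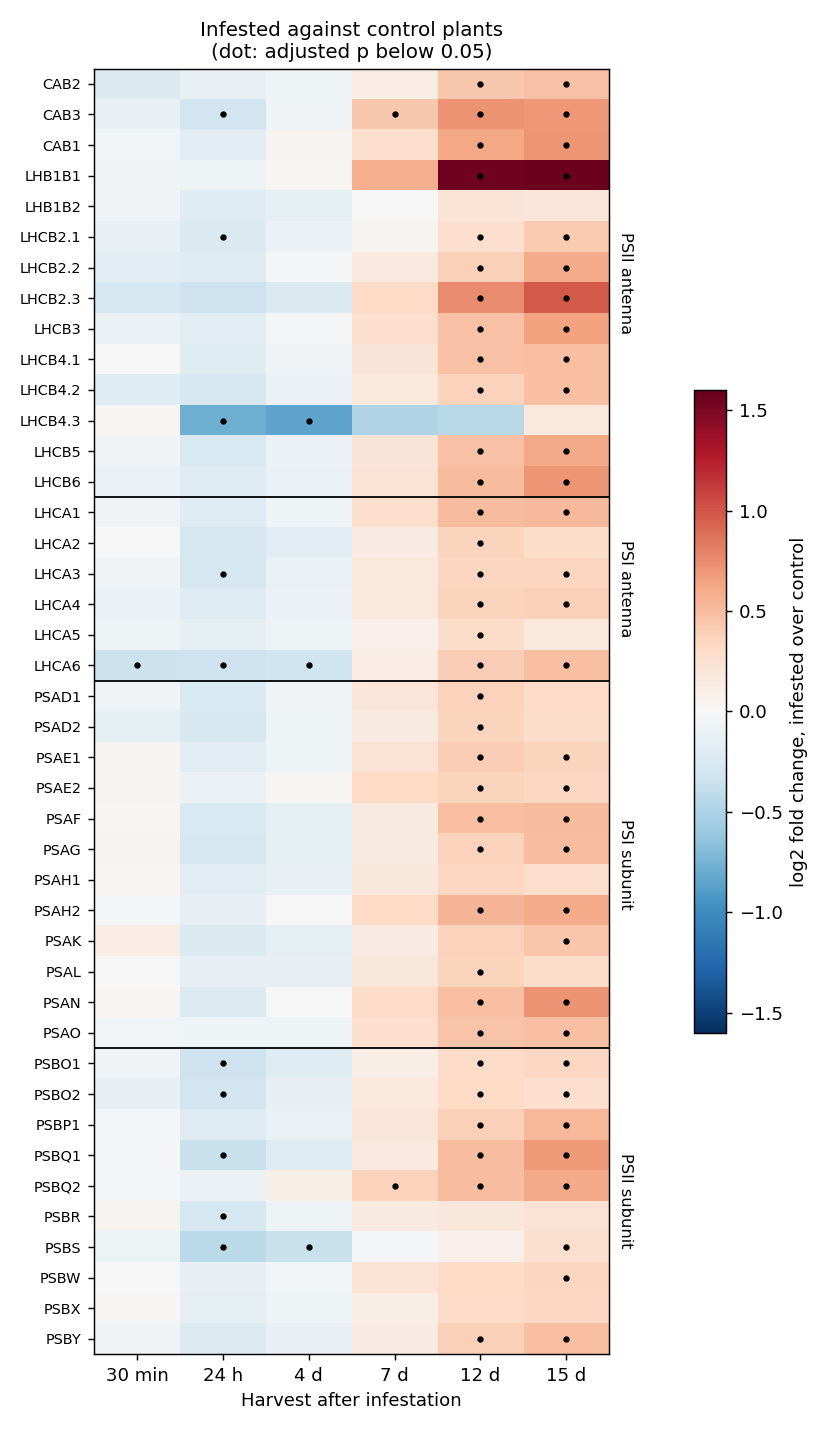
Log2 fold change of infested over control plants (colour scale) for each of the 42 genes (rows, grouped by role) at each harvest (columns), with a dot where the adjusted p is below 0.05. All rows are blue (lower) at 24 h and nearly all red (higher) at 12 d and 15 d, LHB1B1 has the deepest red, and LHCB4.3 is blue between 24 h and 12 d.

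The 12 d count was 21 without infested replicate 1 and 22 without control replicate 4, and the 15 d count was 11 when the 8 libraries of that harvest were fitted alone. Without infested replicate 1 the genes that lost the 12 d call were LHCA2, LHCA5, LHCB2.1, LHCB4.2, PSAD1, PSAD2, PSAE1, PSAE2, PSAG, PSAL, PSAN, PSAO and PSBY, and without control replicate 4 they were the same genes except LHCA5. Of these, LHCA2, LHCB2.1, PSAD1, PSAD2, PSAE2, PSAL and PSBY also lost it without control replicate 2, PSAD2 and PSBY without infested replicate 4 or control replicate 3, PSAE2 without infested replicate 3 and PSBY without infested replicate 2. At 15 d PSAE1, PSAE2, PSAK, PSBS and PSBW lost their calls without infested replicate 1, infested replicate 2, control replicate 2 or control replicate 4. PSAO and PSBO2 lost theirs without infested replicate 2, control replicate 2 or control replicate 4, PSBY without infested replicate 2 or control replicate 4, and PSAK also without control replicate 3. Other lists moved at 1 or both of these harvests. At 12 d the 6 floral organ markers summed to 79.7 to 106 CPM in infested and 114 to 126 CPM in control libraries. There 1 of 6 was lower, beside 8.3% of all genes. At 15 d the floral sums were 133 to 166 CPM in infested and 135 to 190.4 CPM in control libraries, with overlap, and edgeR called no gene of that list. The 3 leaf markers summed to 24625 to 28121 CPM in infested and 20015 to 23750.0 CPM in control libraries at 12 d. At 15 d they summed to 17416 to 23376 CPM in infested and 13173 to 17102 CPM in control libraries. At 12 d 1 of 3 was higher, beside 7.78% of all genes, and at 15 d 3 of 3, beside 8.67%. The part of these lists in the higher photosystem transcripts was not tested.

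Among the antenna genes of photosystem II, LHB1B1 had the largest log2 fold change of infested over control plants of the 42 genes at both late harvests. LHCB1 is the most abundant protein of the LHCII trimer. LHB1B1 had 2092, 1336, 1273 and 1390.1 CPM in infested libraries, against 508, 615, 541 and 404 CPM in control libraries at 12 d. At 15 d it had 382, 568, 344 and 295 CPM in infested libraries, against 218, 123, 113 and 78.6 CPM in control libraries. All infested values lay above all control values at both times, although infested replicate 1 at 12 d was far above its group. The log2 fold change was 1.56 (SE 0.23, edgeR adjusted p = 5.32e-06) at 12 d and 1.57 (SE 0.23, edgeR adjusted p = 6.03e-06) at 15 d. At 24 h LHB1B1 averaged 3119 ± 291 CPM in infested and 3291 ± 363 CPM in control libraries, and at 4 d 2091 ± 145 CPM in infested and 2039 ± 149.7 CPM in control libraries, with log2 fold changes of -0.08 and 0.04 that missed the threshold.

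Its neighbour LHB1B2 did not pass the test at any harvest. LHB1B2 had 10426, 8257, 7989 and 8869.9 CPM in infested libraries, against 8559.8, 6662, 8031 and 7376 CPM in control libraries at 12 d, with overlap. At 15 d it had 7731, 8276, 7616 and 7721 CPM in infested libraries, against 8264, 6057, 6390.5 and 6619 CPM in control libraries, again with overlap through control replicate 1. The log2 fold change was 0.21 (SE 0.10, edgeR adjusted p = 0.141) at 12 d and 0.20 (SE 0.10, edgeR adjusted p = 0.165) at 15 d. Whether LHB1B1 and LHB1B2 differ in response was not tested directly, and all exon bases of LHB1B2 overlap a counted gene on the other strand.

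The 3 CAB genes were higher in infested than in control plants at both late harvests. CAB1 had 16587, 12636, 13028 and 13463 CPM in infested libraries, against 9379, 9083, 9670.5 and 8137 CPM in control libraries at 12 d, and 8897, 10648, 8951 and 8499 CPM in infested libraries, against 7309.6, 4877, 5376 and 5126 CPM in control libraries at 15 d. CAB2 had 6729.9, 5424, 5526 and 5526 CPM in infested libraries, against 4609, 4106, 4697 and 3757 CPM in control libraries at 12 d, and 4401, 5092, 4031 and 3928 CPM in infested libraries, against 3866, 2804, 3068 and 2908 CPM in control libraries at 15 d. CAB3 had 4735, 3747, 3728 and 3779 CPM in infested libraries, against 2438, 2404, 2636 and 2272 CPM in control libraries at 12 d, and 2435, 2888, 2226 and 2178 CPM in infested libraries, against 1910.0, 1293, 1471 and 1334 CPM in control libraries at 15 d. In all 3 genes the groups were apart at both times, and infested replicate 1 was the highest library at 12 d. Their log2 fold changes at 12 d and 15 d were 0.62 and 0.71 for CAB1, 0.43 and 0.46 for CAB2, and 0.71 and 0.70 for CAB3 (SE 0.09 to 0.11). CAB3 alone of the LHCB1 copies was called at 24 h, where it had 5478, 5191, 5399 and 5776 CPM in infested libraries, against 6751, 6612, 6743 and 6988 CPM in control libraries, and at 7 d, where it had 6189, 5996, 5855 and 5900.1 CPM in infested libraries, against 5735, 3476, 3412 and 5138 CPM in control libraries. Its log2 fold change was -0.31 (SE 0.11, edgeR adjusted p = 0.0362) at 24 h and 0.43 (SE 0.11, edgeR adjusted p = 0.00582) at 7 d. The calls of CAB3 were lost at 24 h without infested replicate 1, 2 or 3 or control replicate 1, 3 or 4, and at 7 d without control replicate 2 or 3.

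**Figure D3:**
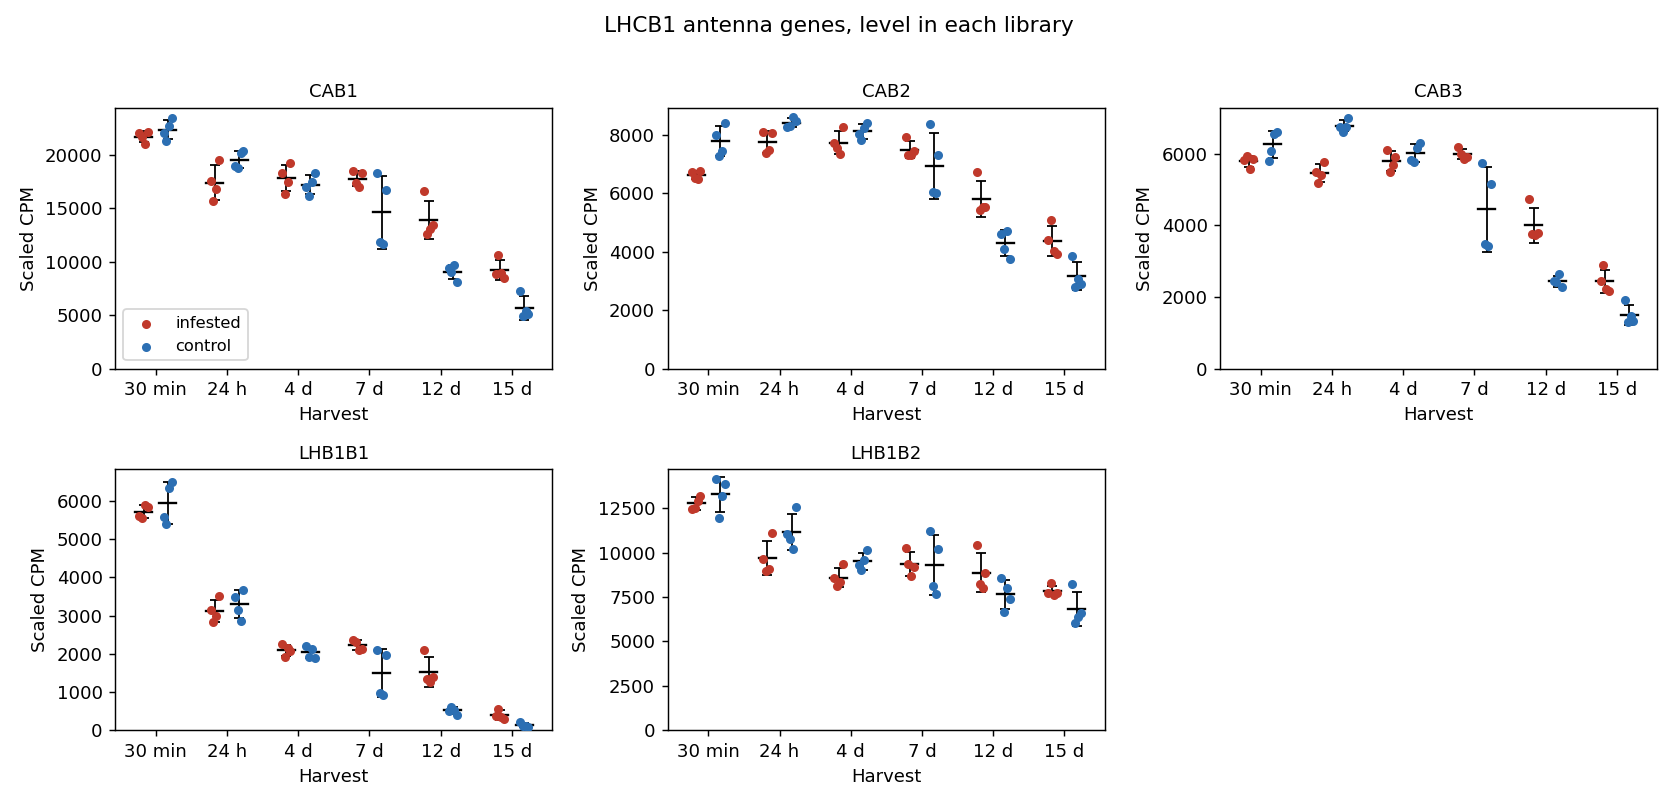
Level of the 5 LHCB1 copies (y axis, scaled CPM) in each library at each harvest (x axis), with a line at the mean and a bar of 1 SD. The y axes differ between panels. At 15 d LHB1B1 is at 78.6 to 218 CPM in control plants while LHB1B2 stays at 6057 to 8264 CPM in control plants, and infested points (red) lie above control points (blue) at 12 d and 15 d in every panel except that of LHB1B2.

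The make-up of the LHCB1 transcripts, which is described here with no test, stood apart between the arms from 4 d on for LHB1B2 and CAB1. LHB1B2 made 20.5 ± 0.395% of the summed LHCB1 level in infested and 22.2 ± 0.225% in control libraries at 4 d, and 21.8 ± 0.655% in infested and 25.4 ± 1.01% in control libraries at 7 d, already with ranges apart. At the late harvests LHB1B2 made 32.4 ± 1.67% in infested and 39.6 ± 1.26% in control libraries at 15 d, and 26.0 ± 0.673% in infested and 31.9 ± 2.13% in control libraries at 12 d. The ranges were apart both times. CAB2 shares were apart at 30 min, with 12.6 ± 0.140% in infested and 14.0 ± 0.502% in control libraries, and overlapped at every later harvest. CAB3 shares were lower in infested libraries at 24 h and higher at 7 d, 12 d and 15 d, with ranges apart each time. CAB3 made 12.6 ± 0.436% in infested and 13.8 ± 0.23% in control libraries at 24 h, and 9.99 ± 0.447% in infested and 8.66 ± 0.300% in control libraries at 15 d. CAB1 made 38.1 ± 0.734% in infested and 32.7 ± 0.878% in control libraries at 15 d, and LHB1B1 made 1.61 ± 0.327% in infested and 0.752 ± 0.220% in control libraries. In plants of 30 min LHB1B1 had made 10.9 ± 0.331% in infested and 10.7 ± 0.566% in control libraries. The summed LHCB1 level was 24277 ± 2189 CPM in infested and 17302 ± 2894 CPM in control libraries at 15 d.

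LHB1B1 and LHB1B2 are neighbours on chromosome 2, transcribed away from each other, and the 250 bases before each gene start are shown because only 1 of the copies passed the late tests. They are from RefSeq TAIR10.1, at chr2:14524357-14524606 on the plus strand and chr2:14523569-14523818 on the minus strand, 5′ to 3′. Capitals mark matches on either strand to GATAAG (the I-box), CACGTG (the G-box), CCAATC (an element of GLK target promoters) or AATATCT (the core of the evening element), each counted separately.
LHB1B1: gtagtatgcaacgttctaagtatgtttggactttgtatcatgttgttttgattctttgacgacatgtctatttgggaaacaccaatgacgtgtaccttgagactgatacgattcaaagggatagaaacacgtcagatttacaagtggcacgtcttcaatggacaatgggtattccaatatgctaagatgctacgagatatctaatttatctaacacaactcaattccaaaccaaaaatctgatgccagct
LHB1B2: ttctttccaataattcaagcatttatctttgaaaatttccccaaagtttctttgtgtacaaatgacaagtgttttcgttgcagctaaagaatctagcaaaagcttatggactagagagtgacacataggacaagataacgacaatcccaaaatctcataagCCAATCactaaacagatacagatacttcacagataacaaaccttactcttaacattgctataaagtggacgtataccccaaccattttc
The LHB1B2 window holds 1 CCAATC and the LHB1B1 window holds none of the 4 motifs. Across roles CCAATC was found in 7 of the 14 windows of photosystem II antenna genes, 3 of the 6 of photosystem I antenna genes, 1 of the 10 of photosystem II subunits and 0 of the 12 of photosystem I subunits, beside 10.2% of 27444 windows of the same length before protein-coding nuclear genes. CACGTG was in 8 of the 42 windows (19.0%) beside 6.49% of all, GATAAG in 9 of the 42 beside 3374 of the 27444, and AATATCT in 5 beside 2745. These matches describe the letters in the windows only. Each window ends at the annotated gene start, so its distance from the coding sequence can differ between genes.

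The LHCB2 genes encode the second trimer protein, whose phosphorylation accompanies state transitions. LHCB2.3 had 1972, 1499, 1386 and 1434 CPM in infested libraries, against 1083, 936, 1002 and 715 CPM in control libraries at 12 d, and 872, 1041, 822 and 642 CPM in infested libraries, against 638, 363, 431 and 274 CPM in control libraries at 15 d. The groups were apart at both times, at 15 d only just, between infested replicate 4 and control replicate 1. Its log2 fold change was 0.75 (SE 0.19, edgeR adjusted p = 0.00378) at 12 d and 0.99 (SE 0.19, edgeR adjusted p = 0.000246) at 15 d. LHCB2.1 had 4573, 3972, 3863 and 4066 CPM in infested libraries, against 3744, 3296, 3533 and 3094 CPM in control libraries at 12 d, where the log2 fold change was 0.27 (SE 0.08, edgeR adjusted p = 0.0217). LHCB2.2 averaged 2457 ± 252 CPM in infested and 1634 ± 273 CPM in control libraries at 15 d, with 0.59. At 24 h LHCB2.1 was the only LHCB2 copy called, with 4694, 4194, 4188 and 4829 CPM in infested libraries, against 5156, 5204, 5044 and 5588 CPM in control libraries and a log2 fold change of -0.23 (SE 0.08, edgeR adjusted p = 0.0409). LHCB2.2 and LHCB2.3 had -0.19 and -0.33 at 24 h without passing the test. The larger value of LHCB2.3 came with a larger SE, 0.18 against 0.08 for LHCB2.1.

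LHCB3, the protein of the inner trimers, and the linker antenna proteins LHCB5 and LHCB6 were higher in infested plants at both late harvests. LHCB3 averaged 5640.3 ± 498 CPM in infested and 4084 ± 450.0 CPM in control libraries at 12 d and 3832 ± 476 CPM in infested and 2456 ± 466 CPM in control libraries at 15 d, with log2 fold changes of 0.47 and 0.64. LHCB5 averaged 4146 ± 495 CPM in infested and 2734 ± 549.7 CPM in control libraries at 15 d (0.60), and LHCB6 2574 ± 407 CPM in infested and 1583 ± 308 CPM in control libraries (0.70). At 12 d LHCB5 had 0.46 and LHCB6 0.51. For these 3 genes every infested library was above every control library at both harvests.

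LHCB4.3 was lower in infested plants at 24 h and 4 d and, unlike most antenna genes, was not called higher late. It is the rarest of the 3 LHCB4 genes, which encode the linker CP29. LHCB4.3 had 12.48, 14.05, 15.18 and 10.39 CPM in infested libraries, against 21.74, 18.86, 22.86 and 25.82 CPM in control libraries at 24 h. At 4 d it had 35.93, 46.41, 27.97 and 50.03 CPM in infested libraries, against 56.99, 72.5, 74.94 and 84.03 CPM in control libraries. The infested libraries were all below the controls at both times. The log2 fold change was -0.78 (SE 0.20, edgeR adjusted p = 0.004) at 24 h and -0.85 (SE 0.19, edgeR adjusted p = 0.00102) at 4 d. At 7 d it had 77.7, 62.2, 65.3 and 70.0 CPM in infested libraries, against 94.7, 113, 97.0 and 78.3 CPM in control libraries, also apart, but the fold change of -0.48 missed the threshold (edgeR adjusted p = 0.0824). At 12 d its value was -0.44 (edgeR adjusted p = 0.0998), and at 15 d, where it had 206, 177, 107 and 148 CPM in infested libraries, against 136, 127, 174 and 129.7 CPM in control libraries, the groups overlapped. LHCB4.1 and LHCB4.2 were higher in infested plants at both late harvests. LHCB4.1 averaged 3009 ± 396 CPM in infested and 2161 ± 309.5 CPM in control libraries at 15 d (0.48), and LHCB4.2 1988 ± 151 CPM in infested and 1419 ± 268 CPM in control libraries (0.49). At 24 h neither passed the test, with -0.19 and -0.27.

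In coding sequence LHCB4.3 was 68.6% identical to LHCB4.1 and 69.0% to LHCB4.2, while LHCB4.1 and LHCB4.2 were 81.9% identical. The 250 bases before LHCB4.1 (chr5:208616-208865, plus strand) and LHCB4.3 (chr2:16745378-16745627, plus strand) are shown, with capitals as above. They set a copy that was higher in infested plants at both late harvests beside one that was not called higher then.
LHCB4.1: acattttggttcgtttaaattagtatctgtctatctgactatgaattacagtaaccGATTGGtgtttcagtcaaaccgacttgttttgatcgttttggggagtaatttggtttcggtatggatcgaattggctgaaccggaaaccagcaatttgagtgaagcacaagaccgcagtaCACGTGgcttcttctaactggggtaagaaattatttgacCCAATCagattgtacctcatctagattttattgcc
LHCB4.3: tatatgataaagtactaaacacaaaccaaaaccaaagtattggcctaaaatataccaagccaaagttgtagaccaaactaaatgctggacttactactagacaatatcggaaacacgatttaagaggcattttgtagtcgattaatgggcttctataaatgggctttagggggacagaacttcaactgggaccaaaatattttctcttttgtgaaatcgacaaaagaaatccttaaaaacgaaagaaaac
The LHCB4.1 window holds CCAATC in 2 places and CACGTG in 1, LHCB4.2 holds 1 CCAATC and 1 GATAAG, and the LHCB4.3 window holds none of the 4 motifs.

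**Figure D4:**
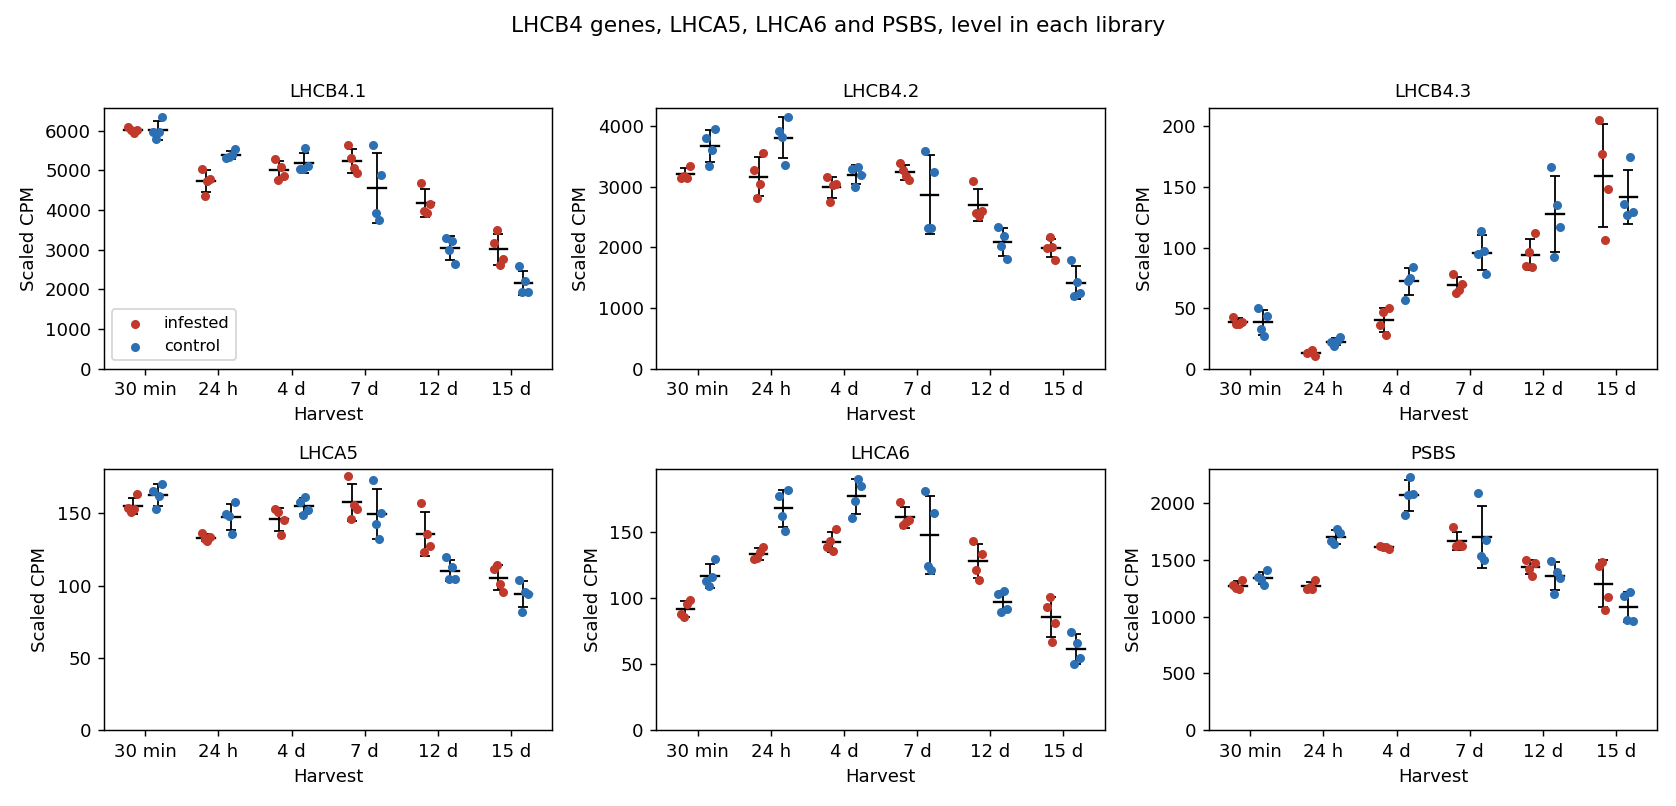
Level of the LHCB4 genes, LHCA5, LHCA6 and PSBS (y axis, scaled CPM) in each library at each harvest (x axis), with a line at the mean and a bar of 1 SD. The y axes differ between panels. LHCB4.3 is at its lowest at 24 h in both arms and highest at 15 d, and is lower in infested plants (red) at 24 h and 4 d. LHCB4.1 and LHCB4.2 are lowest at 15 d in both arms and higher in infested plants at 12 d and 15 d.

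Among the 6 antenna genes of photosystem I, the 4 that encode the LHCA1 to LHCA4 belt were all higher in infested plants at 12 d. LHCA1, LHCA3 and LHCA4 were also higher at 15 d. LHCA1 averaged 5437 ± 487 CPM in infested and 3839.8 ± 343 CPM in control libraries at 12 d and 3437 ± 429 CPM in infested and 2397 ± 363 CPM in control libraries at 15 d, with log2 fold changes of 0.50 and 0.52. LHCA4 averaged 6671 ± 565 CPM in infested and 5205 ± 345 CPM in control libraries at 12 d (0.36) and 4809 ± 286 CPM in infested and 3692 ± 487 CPM in control libraries at 15 d (0.38). LHCA2 passed at 12 d with 0.36 but not at 15 d, where it had 0.29 (SE 0.11, edgeR adjusted p = 0.0509). LHCA3 was the only belt gene called at 24 h. It had 4284, 4011, 4036 and 4294 CPM in infested libraries, against 4805, 4975, 4886 and 5317 CPM in control libraries, with no overlap and a log2 fold change of -0.27 (SE 0.09, edgeR adjusted p = 0.0255). At 12 d and 15 d LHCA3 had 0.34 and 0.34.

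LHCA5 and LHCA6 are rare antenna proteins that tie photosystem I to the chloroplast NADH dehydrogenase-like complex in Arabidopsis. LHCA6 was the single gene of the 42 called lower at each of the first 3 harvests. It had 87.9, 85.8, 95.1 and 98.8 CPM in infested libraries, against 112, 109, 116 and 129 CPM in control libraries at 30 min. At 24 h it had 129, 130.3, 135 and 139 CPM in infested libraries, against 177, 162, 151 and 182 CPM in control libraries, and at 4 d 138, 143, 135 and 152 CPM in infested libraries, against 160.2, 173, 190.0 and 184 CPM in control libraries. No infested library reached a control library at any of the 3 times. The log2 fold change was -0.34 (SE 0.11, edgeR adjusted p = 0.0188), -0.33 (SE 0.11, edgeR adjusted p = 0.0226) and -0.31 (SE 0.11, edgeR adjusted p = 0.0407), in order of time. The call at 4 d was lost without infested replicate 1, 2 or 3 or control replicate 2, 3 or 4. At 12 d LHCA6 had 143, 121, 114 and 133 CPM in infested libraries, against 103, 89.0, 105 and 91.7 CPM in control libraries, and at 15 d 93.0, 101, 66.9 and 80.8 CPM in infested libraries, against 74.6, 49.9, 65.9 and 55.0 CPM in control libraries. It was higher at both, with 0.39 (SE 0.11, edgeR adjusted p = 0.00975) and 0.48 (SE 0.11, edgeR adjusted p = 0.00205), although at 15 d infested replicate 3 lay below control replicate 1.

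LHCA5 was higher in infested plants at 12 d. It had 157, 123, 136 and 127 CPM in infested libraries, against 119.5, 105, 113 and 105 CPM in control libraries, which did not overlap, and a log2 fold change of 0.30 (SE 0.08, edgeR adjusted p = 0.00526). This call was lost without infested replicate 1, with an edgeR adjusted p between 0.00133 and 0.0623 over the edgeR alternatives tried. At 15 d LHCA5 had 111, 114, 101 and 95.5 CPM in infested libraries, against 104, 81.9, 95.9 and 94.1 CPM in control libraries, with overlap and 0.17 (SE 0.08, edgeR adjusted p = 0.124). At 24 h it averaged 133 ± 2.22 CPM in infested and 148 ± 9.13 CPM in control libraries (-0.15, edgeR adjusted p = 0.176).

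Of the 12 genes of photosystem I subunits most were higher in infested plants at the late harvests, by small amounts. At 24 h all 12 fold changes were negative, between -0.26 and -0.07. There edgeR called 0 of 12 (4 at an unadjusted p below 0.05, and DESeq2 gave the same calls), beside 10.2% of all genes lower. At 12 d 10 of 12 were higher, beside 7.78% of all genes, with fold changes of 0.34 to 0.55 over the 12. At 15 d 8 of 12 were higher, beside 8.67%, with 0.29 to 0.72. PSAN, a subunit on the lumen side that helps plastocyanin to dock, had the largest of these fold changes at 15 d. PSAN had 1256, 1394, 1036 and 965 CPM in infested libraries, against 961, 559, 835 and 479 CPM in control libraries, with infested replicate 4 just above the highest control library. Its log2 fold change was 0.72 (SE 0.15, edgeR adjusted p = 0.000786) at 15 d and 0.48 (SE 0.15, edgeR adjusted p = 0.021) at 12 d. PSAF, the plastocyanin-docking subunit, averaged 2109.6 ± 318 CPM in infested and 1487 ± 298 CPM in control libraries at 15 d (0.50) and had 0.48 at 12 d.

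PSAH, PSAL and PSAO form the side of photosystem I to which LHCII docks in state transitions. The PSAH copies PSAH1 and PSAH2 differed in whether they passed. PSAH2 had 1429, 1164, 1102 and 989 CPM in infested libraries, against 894, 809, 843 and 662 CPM in control libraries at 12 d, and 736, 849, 659 and 573 CPM in infested libraries, against 583, 408, 514 and 361 CPM in control libraries at 15 d. PSAH1 had 1169, 886, 873 and 846 CPM in infested libraries, against 899.7, 700.2, 750.3 and 637 CPM in control libraries at 12 d, and 730.2, 811, 641 and 579.7 CPM in infested libraries, against 719, 485, 583 and 476 CPM in control libraries at 15 d. PSAH2 was called at both harvests, with 0.55 (SE 0.12, edgeR adjusted p = 0.00141) and 0.59 (SE 0.12, edgeR adjusted p = 0.00062), although its values overlapped at 15 d. PSAH1 was called at neither, with 0.34 (SE 0.12, edgeR adjusted p = 0.0529) and 0.29 (SE 0.12, edgeR adjusted p = 0.0964), and its values overlapped both times. Whether PSAH1 and PSAH2 differ in response was not tested directly. PSAH1 made 49.6 ± 0.622% of the summed PSAH level in infested and 54.9 ± 1.55% in control libraries at 15 d, and its range in infested libraries also lay below that in control libraries at 4 d, 7 d and 12 d. Of the exon bases of PSAH1, 53.3% overlap a counted gene on the other strand, against 24.8% in PSAH2.

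PSAL was called at 12 d (0.36) and missed the threshold at 15 d, with 0.30 (SE 0.11, edgeR adjusted p = 0.0517). PSAO passed at both, with 0.46 and 0.48. PSAD and PSAE form the stromal side where ferredoxin binds. PSAD1 and PSAD2 were called at 12 d (0.37 and 0.36) and not at 15 d (0.31 and 0.29), while PSAE1 and PSAE2 were called at 12 d (0.39 and 0.36) and at 15 d (0.36 and 0.33). PSAG and PSAK sit beside the antenna belt. PSAG passed at both harvests (0.37 and 0.49), and PSAK passed at 15 d alone (0.44, edgeR adjusted p = 0.0445). The make-up of the PSAD and PSAE pairs lay within 1 SD between the arms at 15 d. PSAD1 made 65.3 ± 0.595% of the PSAD level in infested and 65.3 ± 1.29% in control libraries at 15 d, and PSAE1 made 79.3 ± 0.478% of the PSAE level in infested and 79.2 ± 1.11% in control libraries. At 7 d the ranges of PSAE1 were apart, with 79.6 ± 0.669% in infested and 80.6 ± 0.148% in control libraries.

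Photosystem II subunits supplied 5 of the 10 genes called lower at 24 h. PSBS, which senses lumen acidity and triggers the harmless loss of excess light energy, was lower in infested plants at 24 h and 4 d. It had 1245, 1259, 1241 and 1319 CPM in infested libraries, against 1662, 1638, 1772 and 1735 CPM in control libraries at 24 h, and 1623, 1613, 1612 and 1598 CPM in infested libraries, against 1889.7, 2065, 2229.5 and 2080.0 CPM in control libraries at 4 d. The groups were far apart at both times, and the 4 infested libraries of 4 d spanned only 1598 to 1623 CPM. The log2 fold change was -0.43 (SE 0.09, edgeR adjusted p = 0.000223) at 24 h and -0.36 (SE 0.09, edgeR adjusted p = 0.0026) at 4 d. At 12 d PSBS had 1493, 1420.0, 1361 and 1469.7 CPM in infested libraries, against 1493, 1197, 1395 and 1340.4 CPM in control libraries, with overlap and 0.08 (SE 0.09, edgeR adjusted p = 0.591). At 15 d it had 1440.3, 1483, 1058 and 1168 CPM in infested libraries, against 1177, 972, 1216 and 965 CPM in control libraries, with overlap and 0.25 (SE 0.09, edgeR adjusted p = 0.0404), a call carried by single libraries as given above.

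PSBO, PSBP and PSBQ shield the manganese cluster that splits water. Both PSBO copies were lower in infested plants at 24 h. PSBO1 had 4386, 3963, 4004 and 4617 CPM in infested libraries, against 5089, 5098, 5536 and 5569 CPM in control libraries, and PSBO2 had 1878, 1676, 1794 and 1706 CPM in infested libraries, against 2114, 2073, 2337 and 2208 CPM in control libraries. Neither pair of groups overlapped. The log2 fold changes at 24 h were -0.33 (SE 0.08, edgeR adjusted p = 0.0026) for PSBO1 and -0.31 (SE 0.08, edgeR adjusted p = 0.00296) for PSBO2. At 12 d and 15 d PSBO1 had 0.31 and 0.33, and PSBO2 0.32 and 0.26, all past the threshold. PSBO1 averaged 4112 ± 262 CPM in infested and 3319 ± 166 CPM in control libraries at 12 d and 3234 ± 258 CPM in infested and 2577 ± 308 CPM in control libraries at 15 d. PSBO2 averaged 1171 ± 107 CPM in infested and 975 ± 105 CPM in control libraries at 15 d, where it overlapped. PSBP1 was not called at 24 h (-0.20) and was higher in infested plants at 12 d (0.38) and 15 d (0.54).

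The PSBQ copies differed in when they passed. PSBQ1 had 1527, 1379, 1495 and 1559 CPM in infested libraries, against 1945, 1757, 1911 and 2035 CPM in control libraries at 24 h, with no overlap and a log2 fold change of -0.36 (SE 0.11, edgeR adjusted p = 0.0154). PSBQ2 had 2375, 2137, 2239.8 and 2388 CPM in infested libraries, against 2369, 2427, 2437 and 2510.4 CPM in control libraries at 24 h, with overlap and -0.09 (SE 0.13, edgeR adjusted p = 0.681). PSBQ1 made 39.5 ± 0.404% of the summed PSBQ level in infested and 43.9 ± 1.39% in control libraries at 24 h, and 44.5 ± 2.14% in infested and 49.5 ± 1.62% in control libraries at 4 d, with ranges apart at both. At 7 d PSBQ2 had 2494, 2388, 2275 and 2104 CPM in infested libraries, against 2389, 1395, 1366 and 2041 CPM in control libraries. Its log2 fold change there was 0.36 (SE 0.13, edgeR adjusted p = 0.0457). This call was lost without infested replicate 1, 2 or 3, without control replicate 2 or 3, without a filter and in the 8 libraries of 7 d alone. PSBQ1 had 0.15 at 7 d. Both were higher in infested plants late, PSBQ1 with 0.49 at 12 d and 0.68 at 15 d, and PSBQ2 with 0.49 and 0.61.

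PSBR, a small protein needed for stable binding of PSBP, was lower in infested plants at 24 h. It had 4894, 4336, 4671 and 4890.1 CPM in infested libraries, against 5721, 5859, 5055 and 6132 CPM in control libraries and a log2 fold change of -0.28 (SE 0.10, edgeR adjusted p = 0.046), a call that was lost without any 1 library other than control replicate 3. PSBR was not called at 12 d (0.19) or 15 d (0.23). Of the small membrane subunits, PSBY was higher in infested plants at 12 d (0.38) and 15 d (0.48). PSBW was higher at 15 d (0.34, edgeR adjusted p = 0.0386), and PSBX was called at neither harvest (0.31 and 0.33).

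At 15 d nearly all of the set was lower than at 30 min in both arms. In control plants all 42 genes varied over the 6 harvests, beside 85.3% of all genes. Between 15 d and 30 min 41 were lower, beside 28.4% of all genes, and 1 was higher, beside 36.4%, with a median log2 fold change of -1.36 beside 0.06 over all genes. In infested plants 39 were lower, beside 29.5%, and 1 was higher, beside 34.2%, with a median of -0.85 beside 0.04. This second contrast was chosen after seeing the data. LHB1B1 declined most, with 382, 568, 344 and 295 CPM at 15 d against 5591, 5538, 5882 and 5843 CPM at 30 min in infested plants, and 218, 123, 113 and 78.6 CPM at 15 d against 5587, 5386, 6333 and 6498 CPM at 30 min in control plants. Its log2 fold change was -3.85 (SE 0.25) in infested and -5.48 (SE 0.27) in control plants. The contrast of this change between the arms, 15 d against 30 min, was not run on its own, unlike the interaction over all 6 harvests.

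Among the other LHCB1 copies the decline was -1.25 in infested and -2.06 in control plants for CAB3, -1.23 and -1.98 for CAB1, -0.60 and -1.30 for CAB2, and -0.71 and -0.96 for LHB1B2, on the log2 scale. LHCB2.3 had -0.98 in infested and -2.25 in control plants. LHCB4.3 was the gene that rose in both arms, by 2.04 (SE 0.19) in infested and 1.90 (SE 0.19) in control plants. It made 3.07 ± 0.651% of the summed LHCB4 level in infested and 3.85 ± 0.648% in control libraries at 15 d, against 0.419 ± 0.0298% in infested and 0.390 ± 0.0995% in control libraries at 30 min. PSBS and LHCA6 were lower at 15 d in control plants (-0.31 and -0.93), and in infested plants their values of 0.02 and -0.11 did not pass the test. Floral markers rose over the same interval, 6 of 6 in each arm, and their part in the decline was not tested.

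**Figure D5:**
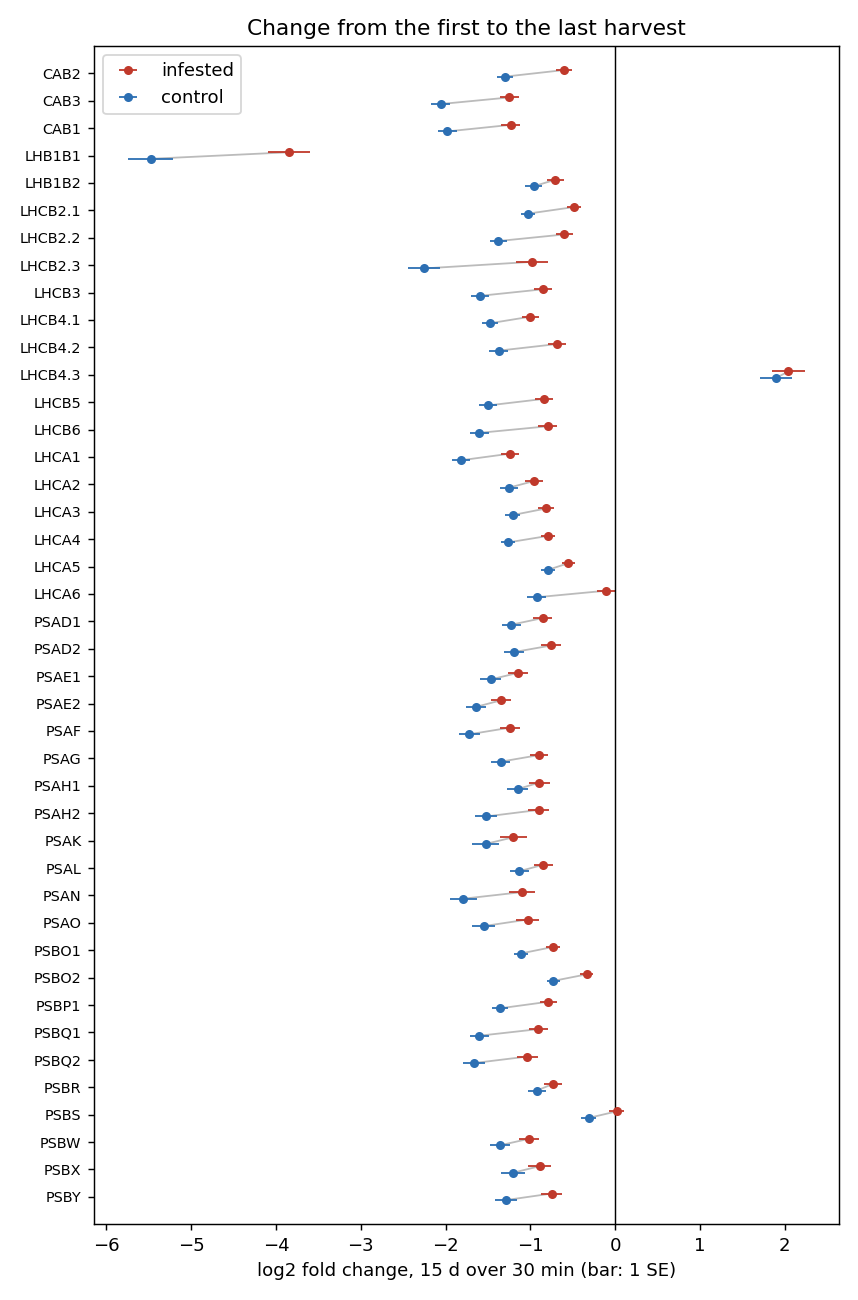
Log2 fold change of each of the 42 genes between 15 d and 30 min (x axis, bar of 1 SE), in infested plants (red) and in control plants (blue). All genes except LHCB4.3 lie left of 0 in control plants, LHB1B1 lies farthest left, and every red point lies right of its blue partner.

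Per kilobase of exon, CAB1 stood highest of the 42 in both arms at 30 min, while at 15 d LHB1B2 stood highest in control plants and was level with CAB1 in infested plants. At 15 d the level was 7499 ± 285 CPM per kb for LHB1B2 and 7519 ± 776 CPM per kb for CAB1 in infested plants, against 6538 ± 939.6 for LHB1B2 and 4612 ± 903 for CAB1 in control plants. At 30 min it was 17660.0 ± 399 CPM per kb for CAB1 and 12230.0 ± 346 for LHB1B2 in infested plants, against 18200.0 ± 738 for CAB1 and 12710.0 ± 943 for LHB1B2 in control plants. PSBR came next among the control levels of 30 min, with 7952 ± 214 CPM per kb. The lowest levels were those of LHCB4.3 (26.3 ± 7.33), LHCA6 (100.3 ± 7.77) and LHCA5 (152 ± 6.87), in CPM per kb in the same group. LHB1B1, at 4536 ± 417 CPM per kb there, was at 102 ± 45.6 CPM per kb in control plants of 15 d.

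Whether the effect of infestation itself changed with time was tested as an interaction. Over all 6 times it changed for 37 of the 42 genes, beside 41.1% of all genes. Those that missed the threshold were PSAE2, PSAH1, PSAK, PSBW and PSBX. Between neighbouring harvests edgeR called 0 of the 42 genes in each of the 5 steps. At an unadjusted p below 0.05 the counts were 5, 0, 12, 6 and 1 in order of time, and DESeq2 called 2 in the step from 30 min to 24 h and 0 in the others. The background in these steps was 11, 3.36, 3.57, 2 and 0.706% of all genes. Between 4 d and 7 d the count was 14 without control replicate 1 of 7 d and 1 without control replicate 4 of 7 d. It was 1 between 30 min and 24 h without control replicate 1 or 4 of 30 min, infested replicate 3 of 24 h or control replicate 2 of 24 h, and 1 between 7 d and 12 d without control replicate 3 of 7 d.

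Across the longer intervals, which were chosen after seeing the data, 40 of 42 genes had a higher effect at 12 d than at 24 h, where 26.1% of all genes were called in either direction, and 40 of 42 at 15 d than at 24 h, where 26.2% were. The median difference was 0.61 and 0.68 on the log2 scale. LHB1B1 differed by 1.64 (SE 0.31) and 1.65 (SE 0.31), LHCB2.3 by 1.08 and 1.32, and CAB3 by 1.02 and 1.01. LHB1B2, which passed at no single harvest, differed by 0.42 (SE 0.14, edgeR adjusted p = 0.0231) at 12 d and 0.40 (SE 0.14, edgeR adjusted p = 0.0302) at 15 d. LHCB4.3 and PSBX were not called for 12 d against 24 h, and PSAE2 and PSBX were not called for 15 d against 24 h.

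Genes of neighbouring pathways are set beside the photosystems. In order of harvest 9.71, 10.2, 7.68, 7.59, 8.3 and 9.68% of all genes were lower in infested plants. In the same order 13.3, 13, 8.68, 6.16, 7.78 and 8.67% were higher, as a background for the counts in these lists. Of 14 genes of electron transport and the ATP synthase, 8 were lower at 24 h, with a median of -0.25. The lowest were the ferredoxins FD1 (-0.41) and FD2 (-0.38), and the least changed of the called ones were FNR1 (-0.24), a ferredoxin-NADP reductase, and PDE334 (-0.25), an ATP synthase subunit. At 4 d 4 of 14 were lower, FD1 (-0.38) and the cyclic-flow protein PGRL1A (-0.26) most, then PDE334 (-0.24) and ATPC1 (-0.22). At 7 d FNR2 was higher (0.44) and FD1 lower (-0.38). At 12 d 7 of 14 were higher and 1 lower, with a median of 0.30, and at 15 d 9 were higher and 1 lower, with a median of 0.29. ATPD (0.55 and 0.60) was among the 2 highest at both harvests, with FD2 (0.51) at 12 d and the plastocyanin PETE2 (0.63) at 15 d. The lower gene at both was PGRL1B (-0.24 and -0.29), and the smallest values called higher were PETC (0.29) at 12 d and FNR1 (0.24) at 15 d.

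The next list holds 9 genes for the import, membrane insertion, phosphorylation and packing of antenna and photosystem proteins. Of these, 2 were lower at 30 min (beside 9.71% of all genes), 6 at 24 h (10.2%) and 1 at 4 d (7.68%). CPSRP43, the chloroplast chaperone that carries LHC proteins, had -0.49 and the kinase STN8 -0.26 at 30 min. At 24 h PSB27 (-0.43) and STN8 (-0.38) were lowest, and the insertase ALB3 (-0.21), CPSRP54 (-0.20) and the LHCII kinase STN7 (-0.20) changed less. At 4 d STN8 had -0.28. At 7 d CPSRP43 (0.25) and CPSRP54 (0.20) were higher and STN7 lower (-0.18). At 12 d 5 of 9 were higher, led by CPSRP43 (0.50) and PSB27 (0.42), with CPFTSY (0.18) and ALB3 (0.26) least. At 15 d 4 of 9 were higher, CPSRP43 (0.30) and CURT1A (0.28) most, then PSB27 (0.27) and CPSRP54 (0.21).

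The GLK factors activate LHC and photosystem genes. GLK1 was higher in infested plants at all 6 harvests, with log2 fold changes of 0.49, 0.38, 0.42, 0.43, 0.34 and 0.72 (edgeR adjusted p between 1.02e-07 and 0.00315), and GLK2 was higher at 7 d (0.39) and 12 d (0.33). At 24 h GLK1 had 374, 339.8, 332 and 365 CPM in infested libraries, against 237, 283, 305 and 261 CPM in control libraries, and at 15 d 210.5, 211, 246 and 226 CPM in infested libraries, against 142, 109, 149 and 141 CPM in control libraries. All infested libraries lay above all controls at both times. GLK2 had -0.10 at 24 h and -0.02 at 15 d and did not pass the test there. Of the 14 clock genes, 3 were higher and 1 lower at 30 min, beside 13.3 and 9.71% of all genes. LUX (1.03) and TOC1 (0.55) were highest there, with PRR9 lower (-0.60). At 4 d 1 clock gene was higher and 3 lower, beside 8.68 and 7.68%, with ELF4 (1.16) highest and CCA1 (-0.43) lowest. At 7 d 3 were lower, beside 7.59%, LUX (-0.52) most. The 24 h calls ran from CCA1 and LHY, the lowest, to ELF3 (0.35) and PRR5 (1.24). At 12 d and 15 d CCA1 had -0.28 and -0.20 and LHY -0.30 and -0.21, of which the value of CCA1 at 15 d did not pass, while PRR7 (0.26 and 0.21) was higher at both and PRR9 (0.58) at 15 d.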

How the data were processed

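Aerial parts of infested and control plants were sequenced in 48 libraries, from total RNA with the NEBNext Ultra kit, per the labels. The authors deposited raw read counts per gene, and the tools fastp, HISAT2, featureCounts and DESeq2 and the build TAIR10 appear in the submitters' processing notes. For versions, settings, strand use and annotation release: not given in the sources used here.

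Counts were analysed in R 4.3.3 with edgeR 4.0.16 and limma 3.58.1. The filter on low counts (filterByExpr by group) left 22252 genes. Scaling was by TMM, and the 12 group means were fitted together, with robust estimation in the quasi-likelihood step. Contrasts were tested two-sided over all genes, with Benjamini-Hochberg adjustment and a threshold of 0.05. Levels are TMM-scaled CPM, mean ± SD (n = 4), and fold changes are log2, with an SE for the main ones. Scaling to a gene's exon length was used only to compare levels between genes. The procedure was tested on simulated data. Alternatives were DESeq2 1.42.0, other scalings, no filter, the 8 libraries of a harvest alone, a replicate block and leaving out each library. Library totals were 12.5 to 23.4 M counts.

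None of the 72 replicate pairs was identical. The chi-square per gene between replicates was 2.57 to 47.0, above sampling noise. Same-numbered libraries deviated together in few cases (24 pairs, correlations of -0.50 to 0.25, 4 above 0.1, and at no harvest all 4), so no block was used. At 7 d the correlations were 0.252, 0.142, 0.143 and -0.00657, in order of replicate. Counts that moved with a replicate block are given below. All 42 loci matched the RefSeq TAIR10.1 annotation, which also supplied exon lengths, sequences and coordinates. Python 3.11.15 and MAFFT 7.526 were used for these. The protein identities planned for the LHCB1 and LHCB4 copies were replaced by coding-sequence identities.

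The members, lists and tests were chosen with earlier results of these data known. Values per library are given for the 3 lowest and 3 highest called genes at each harvest or their means, for the LHCB1 copies, for paralogues of which 1 passed, and for LHCB4.3, LHCA5, LHCA6 and PSBS. In other lists the 2 lowest and 2 highest called genes are named. Every count column was used.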

Additional observations from a re-analysis of the deposited data

Results flagged for a closer look

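In 18 of the 504 groups of 4 libraries formed by the 42 genes and 12 groups, 1 library lay far from the other 3 by Dixon's criterion. Chance alone flags about 1 in 20 groups. Of the 18, 10 fell in infested plants at 12 d, and in all 10 replicate 1 was the highest library. It had 6729.9 CPM for CAB2, 4735 for CAB3, 2092 for LHB1B1, 6380.0 for LHCB3, 3094 for LHCB4.2, 7506 for LHCA4, 1169 for PSAH1, 3953 for PSAL, 4408 for PSBP1 and 2273 for PSBX. In the same library the share of all counts was 15.5% for the 42 genes, 7.82% for the photosystem II antenna and 2.26% for the photosystem I antenna, each far above the other 3 libraries. Without it 21 of the 42 genes were higher at 12 d.

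The other libraries far from their group were infested replicate 1 at 30 min for PSAG (3043 CPM), at 4 d for PSBR (5722 CPM), and at 7 d for PSAK (2341 CPM) and PSBS (1787 CPM), all high. Control replicate 4 was high for PSAO at 30 min (3020.1 CPM) and for PSAD1 at 24 h (2766 CPM). Control replicate 3 was low at 24 h for PSAE2 (482 CPM) and PSAO (1688 CPM).

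The effect of infestation differed between harvests by the interaction test for 37 of the 42 genes over all 6 times, beside 41.1% of all genes. It differed for 40 between 12 d and 24 h, beside 26.1%, and for 40 between 15 d and 24 h, beside 26.2%, a pair of contrasts chosen after seeing the data.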

How the results depend on the processing

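No count or fold change of the 42 genes past its threshold changed direction under any alternative. DESeq2 gave 2 lower genes at 30 min and 2 interaction calls between 30 min and 24 h, where the main analysis had 1 and 0. Scaling to library totals gave 4 lower at 30 min, 21 at 24 h, 1 at 7 d (main 0, with 1 at an unadjusted p below 0.05 and 0 by DESeq2) and 1 at 12 d (main 0, with 1 at an unadjusted p below 0.05 and 0 by DESeq2), 1 interaction call from 30 min to 24 h and 1 from 4 d to 7 d, and 2 genes higher at 15 d than at 30 min in infested plants. Without a filter there were 2 lower at 30 min and 1 higher at 7 d. The 8 libraries of a harvest alone gave 4 lower at 30 min, 25 at 24 h, 11 at 4 d and 1 at 7 d, and 0 higher at 7 d and 11 at 15 d. The cause was not tested, apart from the fewer libraries and genes in such a fit. With a replicate block there were 2 lower at 30 min, 7 higher at 7 d, and 1 interaction call from 30 min to 24 h and 1 from 4 d to 7 d. Libraries correlated best with their own number in 9 of 24 cases, among them every replicate of 4 d and replicates 1, 2 and 3 of 7 d. The block moved no other count by over 1.5 times. RLE size factors moved no count that far. Scaling to library totals ended the calls of LHCB2.1, PSAD2, PSAE2 and PSBY at 12 d and of PSAE2, PSAK, PSBS and PSBW at 15 d. Between 15 d and 30 min it ended those of PSBO2 in infested and PSBS in control plants.

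Leaving out 1 library gave 0 to 1 lower genes at 30 min, 4 to 11 at 24 h, 2 to 3 at 4 d and 0 to 1 at 12 d, and 0 to 26 higher at 7 d, 21 to 36 at 12 d and 24 to 40 at 15 d. Interaction calls ranged from 0 to 1 (24 h against 30 min), 0 to 14 (7 d against 4 d), 0 to 1 (12 d against 7 d), 35 to 42 (all times), 32 to 41 (12 d against 24 h) and 33 to 42 (15 d against 24 h).

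Scaling to library totals shifted the median of all genes by over 0.1 between 15 d and 30 min alone, to 0.24 in infested (main 0.04) and 0.27 in control plants (main 0.06). There the median of the 42 genes was -0.66 in infested and -1.15 in control plants. Of all calls, the lower share became 52.2% at 30 min (main 42.2%), 51.1% at 24 h (44.1%), 52.9% at 4 d (47%), 69.1% at 7 d (55.2%), 74.1% at 12 d (51.6%) and 67.6% at 15 d (52.7%). Between 15 d and 30 min it became 31.1% in infested plants (46.3%) and 28.8% in control plants (43.8%). Whether depth limits any of these results was not tested.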

Other observations

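LHC-like proteins of light stress are relatives of the antenna that hold pigment outside the photosystems. They had 4 of 7 genes lower at 24 h and 2 higher with 2 lower at 12 d, with list medians of -0.21 and 0.20. Of all genes 10.2% were lower at 24 h, and 7.78% were higher and 8.3% lower at 12 d. At 24 h ELIP2 (-1.26) and OHP2 (-0.36) were lowest, followed by LIL3:1 (-0.26) and LIL3:2 (-0.21), which hold enzymes of chlorophyll synthesis at the membrane. At 12 d the early light-induced proteins ELIP1 (-1.23) and ELIP2 (-0.79) were lower while LIL3:1 (0.47) and LIL3:2 (0.22) were higher. At 15 d LIL3:1 (0.63) and stress enhanced protein 1 (0.31) were higher.

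Of 6 genes of chlorophyll breakdown and senescence, NYC1 was lower at 30 min (-0.23) and 7 d (-0.27). The pheophytinase PPH (1.14 and 0.82) and the senescence gene SAG13 (4.65 and 3.83) were higher at 24 h and 4 d. At 12 d SGR1, which removes magnesium from chlorophyll, was lower (-0.46), as were SAG13 (-1.85) and SAG12, a cysteine protease of late senescence. SAG12 had 0.433, 0.800, 0.365 and 0.0961 CPM in infested libraries, against 12.0, 24.6, 21.6 and 38.6 CPM in control libraries at 12 d. At 15 d SAG12 had 50.8, 37.2, 71.8 and 93.7 CPM in infested libraries, against 43.0, 51.2, 31.7 and 73.9 CPM in control libraries, with overlap. Of the 42 photosystem genes 34 were higher at 12 d, beside 7.78% of all genes, and 32 at 15 d, beside 8.67%. Whether the senescence list and the photosystem genes are linked was not tested.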
